A study of Homo sapiens with 11 samples.

Results

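The genes described here encode the enzymes that make and break down prostaglandin E2, and a pair of its receptors. A list of 9 genes was taken: PLA2G4A, PTGS1, PTGS2, PTGES, PTGES2, PTGES3, HPGD, PTGER2 and PTGER4. A gene was followed if the array had a probe set annotated with its symbol alone, and 8 of the 9 had one, out of 22395 such genes on the array. The probe set of PTGES3 also carries the symbol of a pseudogene, so no value is given for PTGES3. Of the 8 genes, 5 passed the filter on low values (PTGES, PTGES2, PTGS1, PTGER2 and PTGER4) and were among the 15865 genes tested. PTGS2, PLA2G4A and HPGD did not pass it.

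The cells were MDA-MB-468, an established line of triple-negative breast cancer that was derived from a pleural effusion. The cells had received no treatment (control, 3 arrays), TNF at 40 ng/ml (3 arrays), apigenin at 40 µM (2 arrays) or TNF at 40 ng/ml together with apigenin at 40 µM (3 arrays), each for 24 h, with the agents prepared in a buffered salt solution. TNF, a cytokine of inflammation, activates NF-kB, and apigenin is a flavone found in plants such as parsley. All arrays come from 1 cell line, and the labels do not say whether replicate arrays came from separate cultures, so p-values measure only the spread between arrays, which may be technical.

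Prostaglandin E2 is made in steps. A phospholipase A2 frees arachidonic acid from membrane lipid, a cyclooxygenase (PTGS1, the constitutive COX-1, or PTGS2, the inducible COX-2) turns it into prostaglandin H2, and a terminal synthase such as PTGES turns that into prostaglandin E2. The product leaves the cell, acts on receptors coupled to cyclic AMP such as EP2 (PTGER2) and EP4 (PTGER4), and is inactivated inside cells by HPGD. In inflamed tissue and in many carcinomas PTGS2 and PTGES are known as the inducible steps, and TNF is a classical inducer of both.

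The sequence before the start site is shown for 3 genes: PTGES, the gene of the list that changed, PTGS2, its inducible partner, and PTGER4, a receptor gene that read higher on every array with TNF than on any control array. Each line gives 250 bases ending 1 base before the RefSeq start (GRCh38.p14), 5′ to 3′ on the strand of the gene, and capitals mark the motif matches described after them.
PTGES, chr9:129753043-129753292, minus strand: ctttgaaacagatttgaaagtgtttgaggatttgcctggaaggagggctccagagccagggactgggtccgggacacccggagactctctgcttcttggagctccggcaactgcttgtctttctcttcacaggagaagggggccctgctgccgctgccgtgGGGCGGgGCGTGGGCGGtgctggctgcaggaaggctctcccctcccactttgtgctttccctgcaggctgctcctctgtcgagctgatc
PTGS2, chr1:186680424-186680673, minus strand: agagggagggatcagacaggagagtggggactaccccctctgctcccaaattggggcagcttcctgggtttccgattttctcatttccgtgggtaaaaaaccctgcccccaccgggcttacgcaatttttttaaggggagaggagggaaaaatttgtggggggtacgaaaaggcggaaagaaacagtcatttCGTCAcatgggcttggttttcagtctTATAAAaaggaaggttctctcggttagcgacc
PTGER4, chr5:40679665-40679914, plus strand: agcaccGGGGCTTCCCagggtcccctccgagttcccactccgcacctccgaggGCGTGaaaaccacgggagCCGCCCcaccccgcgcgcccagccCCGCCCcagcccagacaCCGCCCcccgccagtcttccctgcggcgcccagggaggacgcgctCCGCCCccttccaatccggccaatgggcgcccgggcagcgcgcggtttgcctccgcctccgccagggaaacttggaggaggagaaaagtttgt
Motifs were searched on both strands: a TATA box (TATAAA), a GC box (GGGCGG), an EGR1 motif (GCGNGGGCG), a half-site of the cyclic AMP response element (TGACG), an AP-1 motif (TGANTCA), the core bound by the aryl hydrocarbon receptor (GCGTG) and the kappa B consensus (GGGRNNYYCC). Here R is A or G, Y is C or T and N is any base, and only full matches were marked. The PTGES window held 2 GC boxes, 89 to 84 and 78 to 73 bases upstream, and 1 EGR1 motif, 82 to 74 bases upstream, that overlaps the nearer GC box and contains the aryl hydrocarbon receptor core. EGR1 motifs were present in 8.41% of all 35116 windows of this length, GC boxes in 42.6% and the aryl hydrocarbon receptor core in 32.2%. The PTGS2 window held a TATA box 32 to 27 bases upstream and a cyclic AMP half-site 58 to 54 bases upstream, which were present in 10.7% and 21.2% of the windows. It held no full kappa B match, but near its far end lies a stretch that differs from this consensus at 1 letter. The search therefore does not show that PTGS2 lacks a kappa B site. The PTGER4 window held 4 GC boxes, 1 aryl hydrocarbon receptor core and 1 kappa B match, 244 to 235 bases upstream and read on both strands, which was present in 9.96% of the windows. Some genes of the list whose windows are not shown held the same motifs, while the PLA2G4A window held none of them. A PTGES2 window held an EGR1 motif with the same letters as that of PTGES, and the PTGER2 window also held EGR1 motifs. Kappa B matches also lay in windows of PTGES3, HPGD and PTGER2. A link between motifs and changes was not tested. All these matches describe letters and show no binding.

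Values are the deposited log2 probe set values, and they are compared within a gene and not between genes, since probe sets differ in brightness. The median of all probe set means was 2.53, and it served as the line for low values; the background of the arrays was not measured here, so a value under the line does not show that a gene is silent. The 7 markers of epithelium and of this line (EPCAM, CDH1, KRT7, KRT8, KRT18, KRT19 and EGFR) had means of 4.18 to 10.79, and the hormone receptor genes ESR1 and PGR lay below the median at 2.35 and 1.49. Of 13 markers of leukocytes, mast cells, fibroblasts and endothelium with such a probe set, 4 lay above it (CSF1R, KIT, COL1A1 and CDH5), and the other 9, PTPRC among them, had means of 1.43 to 2.11. Array apigenin 1 stood apart, with a median over the tested genes of 3.89 against 4.08 to 4.32 on the other 10 arrays. Over all genes the apigenin arrays were lower than control by a median of 0.18 (median change -0.18), the arrays with both agents differed from apigenin alone by a median of 0.16, and the medians of the other 3 comparisons of groups lay between -0.04 and 0.02. The median of the interaction was 0.23.

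**Figure D1:**
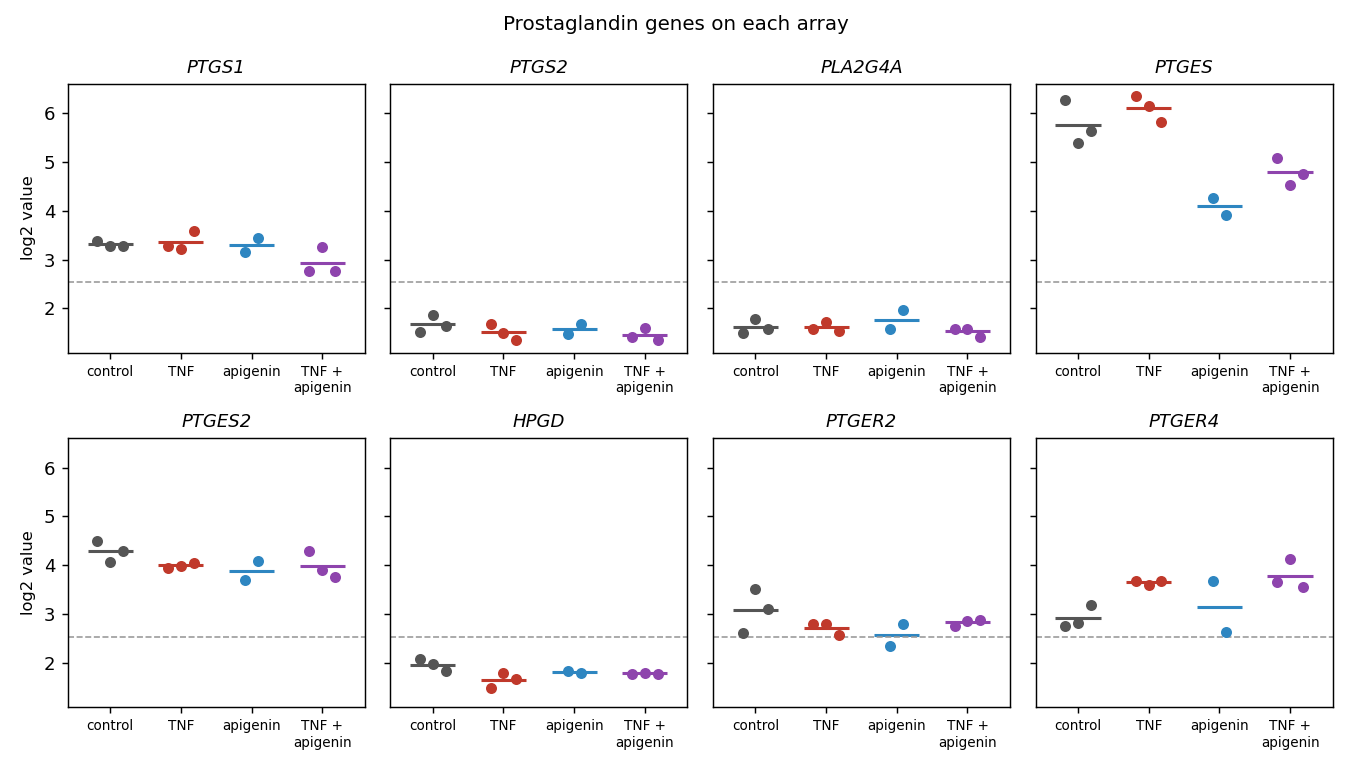
Log2 value (vertical axis) of 8 prostaglandin genes on each array, by treatment (horizontal axis). Points are arrays, short bars are group means, and the dashed line is the median of all probe set means, 2.53. PTGES was lower on all 5 arrays with apigenin, and PTGS2, PLA2G4A and HPGD lay below the dashed line on all 11 arrays.

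PTGES (probe set 17099076), the inducible microsomal synthase of prostaglandin E2, was the gene that changed, and it fell with apigenin. Its log2 values were 6.28, 5.40 and 5.65 on the control arrays and 4.27 and 3.92 on the apigenin arrays. Both apigenin arrays lay below all control arrays. The mean went from 5.77 ± 0.46 (SD, n = 3) to 4.09 ± 0.24 (SD, n = 2), a log2 change of -1.68 ± 0.26 (SE), or 3.2-fold lower (95% interval -2.24 to -1.11, limma adjusted p = 0.00364). Measured from the median change of all genes it was -1.5. This change had rank 34 from the lowest among 15865 genes. In this comparison 3.66% of all genes were called at an adjusted p under 0.05 and 3.44% as lower, and of the 5 tested genes of the list 1 was called. The call was kept without apigenin 1, at -1.85 (adjusted p = 0.0322), and without apigenin 2, at -1.51 (adjusted p = 0.0245), each of which leaves 1 apigenin array that is taken to vary like the other groups.

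PTGES also fell when apigenin was added to TNF. The TNF arrays read 6.36, 6.16 and 5.82, and the arrays with TNF plus apigenin read 5.08, 4.54 and 4.76, so the groups did not overlap. The means were 6.11 ± 0.28 and 4.79 ± 0.27 (SD, n = 3 each), a log2 change of -1.32 ± 0.24 (SE) or 2.5-fold lower (95% interval -1.83 to -0.82, limma adjusted p = 0.0115). It had rank 30 from the lowest, and 1.07% of all genes were called, 0.681% as lower. The arrays compared here are not those of the apigenin and control groups, although 1 estimate of the spread was taken over all 4 groups. The call was lost without TNF 1 (-1.20, adjusted p = 0.064), TNF 2 (-1.30, adjusted p = 0.0573), TNF plus apigenin 2 (-1.19, adjusted p = 0.0731) or TNF plus apigenin 3 (-1.31, adjusted p = 0.0548), with little change in size.

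TNF alone did not move PTGES beyond the spread between arrays. The difference from control was 0.34 ± 0.24 (SE; 95% interval -0.17 to 0.85, limma adjusted p = 0.865), and control 1, at 6.28, lay within the TNF range of 5.82 to 6.36. In this comparison 0.700% of all genes were called, and of the 5 tested genes of the list limma called 0, with PTGER4 alone at an unadjusted p under 0.05. With apigenin present, TNF arrays were higher than arrays without TNF by 0.70 ± 0.26 (SE; 95% interval 0.13 to 1.26), and the groups did not overlap, but the difference did not pass the test (limma adjusted p = 0.229). Here 0.574% of all genes were called, 25.7% had groups without overlap, and of the 5 tested genes limma called 0, with PTGES and PTGER4 at an unadjusted p under 0.05. The interaction, the TNF effect with apigenin minus that without it, was 0.36 ± 0.36 (SE; 95% interval -0.40 to 1.12, limma adjusted p = 0.731). In the interaction 0.0252% of all genes were called, and of the 5 tested genes of the list limma called 0, with 0 at an unadjusted p under 0.05. The interval is wide, and it does not show that apigenin lowered PTGES equally with and without TNF.

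With both agents together PTGES lay below untreated cells. The change was -0.98 ± 0.24 (SE), or 1.97-fold lower (95% interval -1.49 to -0.48, limma adjusted p = 0.0383), in a comparison where 2.82% of all genes were called and 1.78% as lower. The 3 arrays with both agents, 4.54 to 5.08, lay below the lowest control array at 5.40. This call was the least firm. It was lost without control 1 (-0.73, adjusted p = 0.178), control 3 (-1.04, adjusted p = 0.0809), TNF 2 (-0.98, adjusted p = 0.052), TNF plus apigenin 2 (-0.85, adjusted p = 0.17) or TNF plus apigenin 3 (-0.97, adjusted p = 0.116), and with no filter on low values or only the 2 groups in the fit (adjusted p = 0.06 in both).

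The order of the group means of PTGES was TNF, control, TNF plus apigenin and apigenin. The first pair and the last pair of neighbours did not differ beyond the test, and the step between control and TNF plus apigenin did. The genes whose values were most like PTGES over the 11 arrays were FOXI1, a forkhead transcription factor of ionocytes (Pearson r = 0.99), the Wnt ligand gene WNT6 (r = 0.98) and GABBR2, a subunit of the GABA-B receptor (r = 0.98). The arrays fall into treatment groups, so these correlations are descriptions and carry no p-value. FOXI1 fell with apigenin by 1.51 (SE 0.23) and, when apigenin was added to TNF, by 1.03 (SE 0.21). It was picked for its likeness to PTGES on these same arrays, so its falls are a description and no test is given for them.

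**Figure D2:**
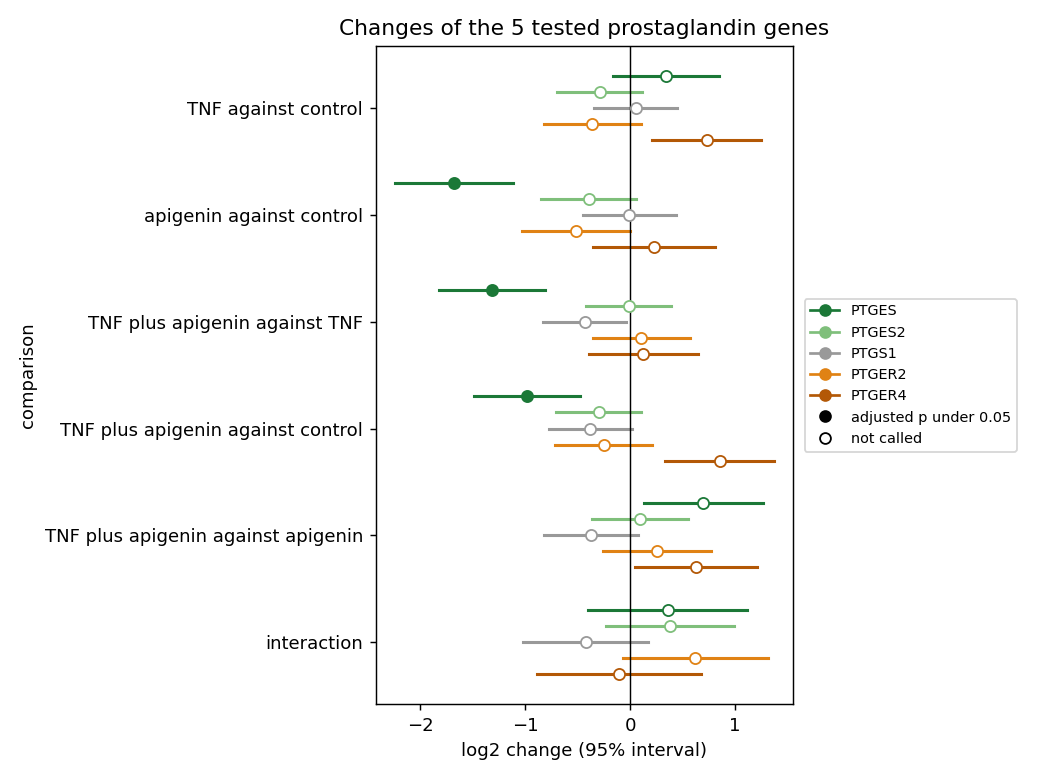
Log2 change (horizontal axis) with its 95% interval for the 5 tested prostaglandin genes in each comparison and in the interaction (vertical axis). Filled points passed an adjusted p under 0.05: these were PTGES with apigenin alone (-1.68), with apigenin added to TNF (-1.32) and with both agents against untreated cells (-0.98).

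PTGES2 encodes the membrane-associated synthase that is usually constitutive. It read 4.50, 4.06 and 4.29 in control, 3.94, 3.99 and 4.05 with TNF, 3.69 and 4.08 with apigenin, and 4.29, 3.89 and 3.76 with both. All 3 TNF arrays lay just under the lowest control array. The TNF difference was -0.29 ± 0.19 (SE; 95% interval -0.69 to 0.12, limma adjusted p = 0.85), and the apigenin difference was -0.40 ± 0.21 (SE; 95% interval -0.85 to 0.06, limma adjusted p = 0.324). When apigenin was added to TNF the difference was -0.01 ± 0.19 (SE; 95% interval -0.42 to 0.39), an interval that does not reach the -1.32 of PTGES. The change of one synthase gene was not tested against that of the other.

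PTGS1, the gene of COX-1, lay above the array median on all arrays. Its values were 3.28 to 3.38 in control, 3.21 to 3.59 with TNF, 3.16 and 3.44 with apigenin, and 2.77, 3.27 and 2.76 with both agents. On 2 of the 3 arrays with both agents it was lower than on any other array. TNF plus apigenin differed from TNF by -0.43 ± 0.19 (SE; 95% interval -0.83 to -0.04, unadjusted p = 0.0348), which did not pass after limma's adjustment (adjusted p = 0.392). Against control the difference was -0.38 ± 0.19 (SE; limma adjusted p = 0.336) with groups that did not overlap.

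PTGS2 (probe set 16697370), the gene of COX-2, gave low values in every group. Its log2 values were 1.52, 1.86 and 1.63 in control, 1.69, 1.50 and 1.35 with TNF, 1.47 and 1.67 with apigenin, and 1.41, 1.60 and 1.35 with both. All 11 were below 2.53, and the mean over the arrays, 1.55, was higher than that of 12.4% of all probe sets. The groups overlapped, and the highest array was a control. PTGS2 was left out of the test by the filter. When every gene was tested, the TNF difference was -0.16 ± 0.15 (SE; 95% interval -0.49 to 0.17, limma adjusted p = 0.947). At values this low, the interval bounds the array value and not the amount of PTGS2 RNA, and times before 24 h were not analysed here.

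PLA2G4A, the calcium-dependent cytosolic phospholipase A2 that frees arachidonic acid, was also under the line on all 11 arrays, at 1.42 to 1.96. HPGD, the dehydrogenase that inactivates prostaglandin E2, lay at 1.83 to 2.08 in control, 1.49 to 1.79 with TNF, 1.79 to 1.83 with apigenin and 1.77 to 1.79 with both. The TNF arrays of HPGD lay below the control arrays. When every gene was tested this difference was -0.31 ± 0.14 (SE; unadjusted p = 0.0396, limma adjusted p = 0.715), and among the other comparisons of PTGS2, PLA2G4A and HPGD the lowest adjusted p was 0.559.

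The receptor gene PTGER4 (EP4) was higher on the TNF arrays without passing the test. It read 2.76, 2.82 and 3.19 in control, 3.69, 3.60 and 3.67 with TNF, 3.68 and 2.63 with apigenin, and 3.65, 4.12 and 3.56 with both. Every array with TNF lay above every control array, and the apigenin arrays differed from each other by more than the control and TNF means did, with apigenin 1 the higher. The TNF difference was 0.73 ± 0.24 (SE; 95% interval 0.21 to 1.25, unadjusted p = 0.00908, limma adjusted p = 0.345). With both agents against control it was 0.85 ± 0.24 (SE; 95% interval 0.34 to 1.37, limma adjusted p = 0.0802), which became a call with array weights (adjusted p = 0.0154). It was also called without apigenin 1 or without apigenin 2, at the same change of 0.85, and these fits are 1 result. The apigenin arrays are not in this comparison and enter it only through the shared estimate of the spread. Both comparisons share the control arrays. Apigenin added to TNF gave a difference of 0.12 ± 0.24 (SE; 95% interval -0.39 to 0.64, limma adjusted p = 0.919).

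PTGER2 (EP2), the other receptor gene coupled to cyclic AMP, lay close to the array median, at 2.60, 3.52 and 3.11 in control, 2.79, 2.79 and 2.57 with TNF, 2.34 and 2.79 with apigenin, and 2.75, 2.85 and 2.88 with both. The control arrays spread more widely than any treated group, and every treated group overlapped them. The differences from control were -0.36 ± 0.22 for TNF, -0.51 ± 0.24 for apigenin and -0.25 ± 0.22 for both (SE; limma adjusted p = 0.805, 0.258 and 0.632).

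Groups of arrays without overlap were common in these comparisons. For TNF against control 2 of the 5 tested genes, PTGES2 and PTGER4, had such groups, against 13.3% of all genes. For apigenin against control it was 1 of 5 (PTGES) against 31.5%. For TNF plus apigenin against TNF it was 1 of 5 (PTGES) against 15.7%, and for TNF plus apigenin against control 3 of 5 (PTGES, PTGS1 and PTGER4) against 20.1%.

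The neighbouring steps of the pathway were read from 3 further lists. Of 45 other prostaglandin and leukotriene genes (synthases, receptors, carriers, reductases and lipoxygenases), 41 had an unshared probe set and 31 were tested. ABCC4, a transporter that exports prostaglandin E2 among other anions, was the 1 gene of this list that passed in any comparison. It read 4.29, 3.98 and 4.36 in control, 6.48, 6.49 and 6.33 with TNF, 4.22 and 4.02 with apigenin, and 5.28, 5.59 and 5.29 with both. TNF raised it by 2.22 ± 0.17 (SE), or 4.65-fold (limma adjusted p = 4.65e-06), and it fell by 1.04 (SE 0.17) when apigenin was added to TNF (limma adjusted p = 0.00709). Arrays with both agents lay between the TNF arrays and the control arrays, without overlap with either. Apigenin alone changed it by -0.09 ± 0.19 (SE; limma adjusted p = 0.837). Where apigenin lowered PTGES with and without TNF, its effect on ABCC4 passed the test with TNF present and not without it, but the interaction of ABCC4, -0.95 ± 0.26 (SE), did not pass (limma adjusted p = 0.432). The median change of the 31 genes was -0.02 for TNF and -0.25 for apigenin, against -0.04 and -0.18 over all genes.

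Of 44 genes of arachidonic acid release and reuptake, 38 had an unshared probe set and 35 were tested. With apigenin 4 of the 35 were called, all lower, a share of 11.4% against 3.66% of all genes. The median change of the 35 was -0.19, against -0.18 over all genes. The list was chosen with earlier results of these data known, and the called PLAAT genes are neighbours of 1 family, so the share is a description. PLAAT4, PLAAT3 and PLAAT2 are phospholipase A and acyltransferase genes that lie side by side on chromosome 11. PLAAT4, also known as a retinoic acid and interferon responder, read 6.93, 6.89 and 6.94 in control and 5.02 and 4.93 with apigenin. It fell by 1.95 (SE 0.21, 3.85-fold, limma adjusted p = 0.000354). PLAAT3, which encodes the adipose phospholipase A2, fell by 1.16 (SE 0.2, limma adjusted p = 0.00612), a call lost without apigenin 1 at -1.17 (adjusted p = 0.0641). PLAAT2 fell by 1.31 (SE 0.25, limma adjusted p = 0.012), a call lost without control 3 at -1.26 (adjusted p = 0.0503), without apigenin 2 at -0.83 (adjusted p = 0.0514), with only the groups compared in the fit (adjusted p = 0.0788) and after a median shift over the tested genes at -1.10 (adjusted p = 0.071). The fourth was LPCAT2, an acyltransferase of platelet-activating factor synthesis, at -1.08 ± 0.27 (SE; limma adjusted p = 0.041); without apigenin 1 it was -0.66 (adjusted p = 0.408) and after quantile normalization -0.77 (adjusted p = 0.0828). Leaving out 1 array at a time ended the LPCAT2 call 6 times in 11.

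The PLAAT genes were also lower with both agents than in control, with PLAAT4 at -1.51 ± 0.19, PLAAT3 at -1.20 ± 0.18 and PLAAT2 at -1.21 ± 0.23 (SE; limma adjusted p = 0.000497, 0.00175 and 0.00925). Apigenin added to TNF gave -0.61, -0.44 and -0.27 for PLAAT4, PLAAT3 and PLAAT2 (limma adjusted p = 0.192, 0.344 and 0.76). In that comparison 0 of the 35 genes were called, against 1.07% of all genes. For TNF alone against control PLAAT3 was at -0.76 and PLAAT2 at -0.94, not called (limma adjusted p = 0.0809 and 0.0928). Both were called with array weights (adjusted p = 0.0214 and 0.0168). TNF alone lowered PLAAT4 by 0.91 (log2 change -0.91 ± 0.19, limma adjusted p = 0.0434), but the call ended 7 times in 11 when 1 array was left out, among them each control and each TNF array, with adjusted p up to 0.18. PLA2G4C, a calcium-independent member of the cytosolic phospholipase A2 family, read 2.24 to 2.28 in control, 1.97 and 2.44 with apigenin, 3.05 to 3.40 with TNF and 2.91 to 3.20 with both agents. It lay above the line for low values only on the arrays with TNF and was tested because of them, so these values are a description and no test is given for it.

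**Figure D3:**
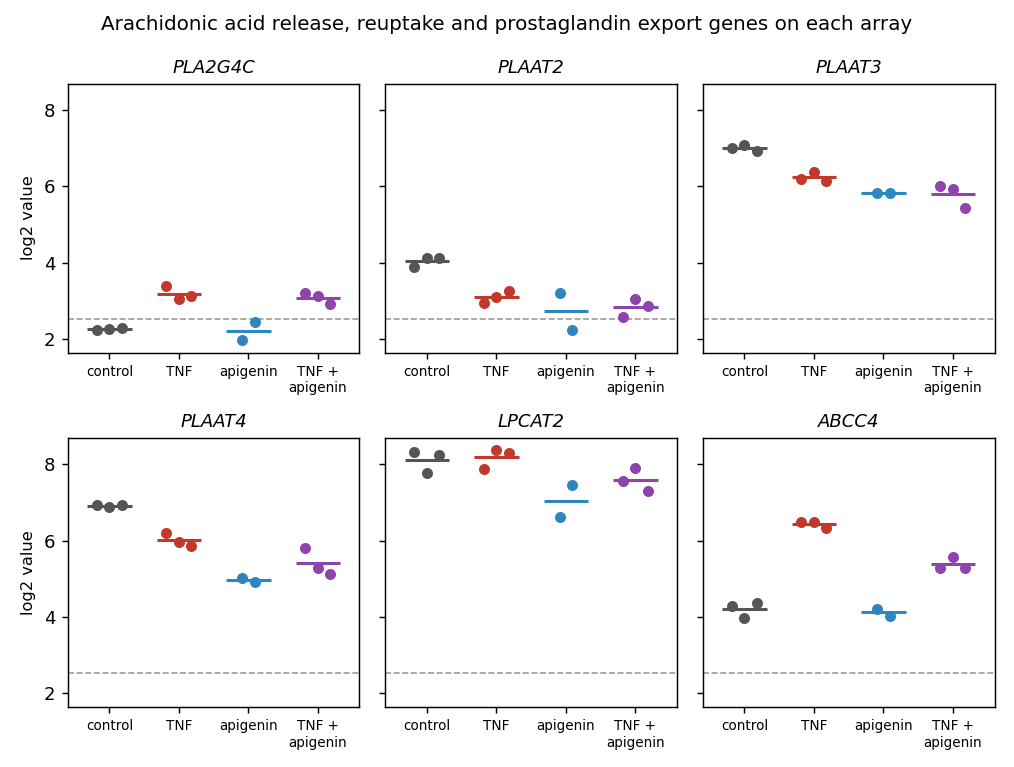
Log2 value (vertical axis) of PLA2G4C, of the called PLAAT genes and LPCAT2, and of the exporter gene ABCC4 on each array, by treatment (horizontal axis). Points are arrays, short bars are group means and the dashed line is the median of all probe set means; ABCC4 lay at 6.33 to 6.49 with TNF and at 5.28 to 5.59 with TNF plus apigenin.

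The third list held 30 genes of prostanoid receptor signalling and of the control of PTGS2 and PTGES, of which 26 were tested. PDE4B, a phosphodiesterase that degrades cyclic AMP, rose with TNF by 0.92 ± 0.17 (SE; limma adjusted p = 0.0165) and fell by 0.79 (SE 0.17) when apigenin was added (limma adjusted p = 0.0313), calls that ended 5 times and 7 times in 11 when 1 array was left out (adjusted p up to 0.0982 and 0.166). FOS, a subunit of AP-1, fell with apigenin by 1.26 (SE 0.24, limma adjusted p = 0.00996; without apigenin 1 -1.09, adjusted p = 0.124). It also fell with TNF by 0.98 (SE 0.21, limma adjusted p = 0.0477), a call that ended 7 times in 11 (adjusted p up to 0.216). With both agents against control NR4A2, an orphan nuclear receptor gene, fell by 1.08 (SE 0.2, limma adjusted p = 0.00926), FOS fell by 1.33 (SE 0.21, limma adjusted p = 0.00266), and CREB1, the cyclic AMP response factor, was higher by 0.78 (SE 0.2, limma adjusted p = 0.0481), a call that ended 9 times in 11 (adjusted p up to 0.2). Between arrays with apigenin, those with TNF were higher in NFKB1 by 1.47 ± 0.21 (SE, limma adjusted p = 0.00412). CREB1 was higher by 1.29 ± 0.22 (SE, limma adjusted p = 0.0139). Without apigenin 1, which leaves 1 apigenin array, these changes were 1.31 and 0.99. The NFKB1 call ended 1 time in 11 and with only the groups compared (adjusted p = 0.0714). The CREB1 call ended 3 times in 11, with array weights (adjusted p = 0.0502) and with only the groups compared (adjusted p = 0.149).

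**Figure D4:**
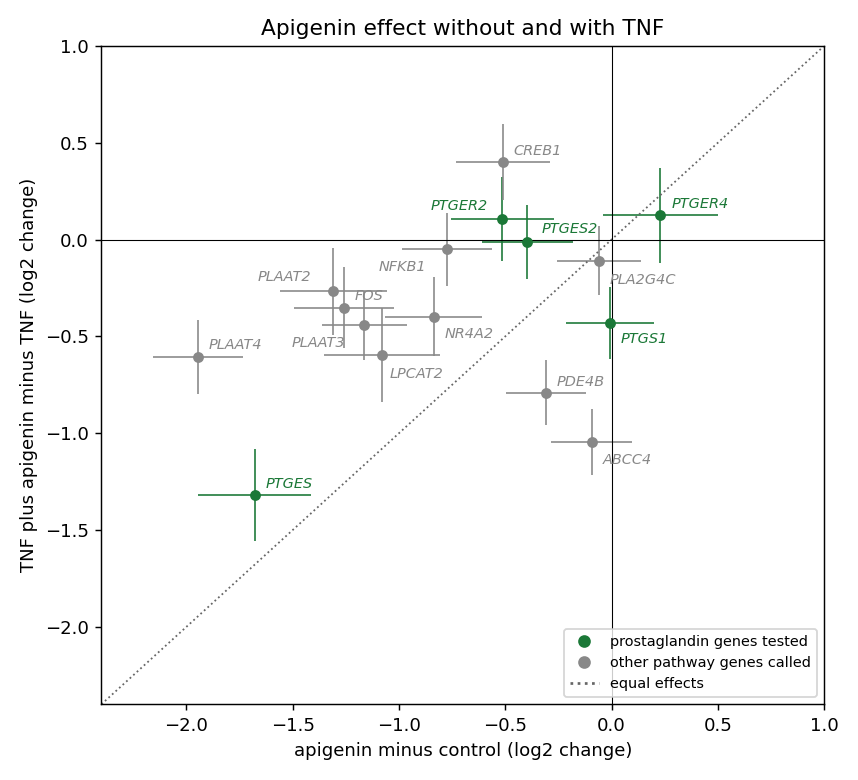
Log2 change for apigenin against control (horizontal axis) and for TNF plus apigenin against TNF (vertical axis), with SE, for the 5 tested prostaglandin genes (green) and the other pathway genes called in any comparison (grey). PLA2G4C, tested only because of the arrays with TNF, is among the grey genes as a description. The dotted line marks equal changes. PTGES lies at -1.68 and -1.32, and ABCC4 at -0.09 and -1.04.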

How the data were processed

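Total RNA had been hybridised to 11 GeneChip Human Gene 2.1 ST arrays. The deposited table gives log2 values for 53617 probe sets. Per the submitters' processing notes the authors used Affymetrix Expression Console; for its version, algorithm and normalization the sources used here give nothing. The log2 base was inferred from the range, 0.38 to 12.31. Groups and replicate numbers came from the sample titles. Probe sets with 1 symbol (23871) gave 22395 genes, using the probe set with the highest mean where a gene had several, and symbols were updated through RefSeq gene numbers (GRCh38.p14, names only). The filter kept genes with 2 or more arrays of any group at or above 2.53. All 11 arrays were fitted with 1 mean per group in R 4.3.3 with limma 3.58.1 (lmFit, eBayes, 7 residual degrees of freedom). Two-sided p-values were adjusted by Benjamini-Hochberg over the 15865 genes; called means an adjusted p under 0.05. The procedure was tested on simulated data. The number of arrays limits the precision.

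All 9 genes of the list, the called genes of the 3 further lists, and the 3 genes most correlated with each called gene of the list were named. The genes and lists were chosen with earlier results of these data known. Alternatives were 2 normalizations between arrays, 2 filters, a variance trend, array weights, only the groups compared, a replicate block, the mean of probe sets and leaving out each array, plus a median shift over the tested genes, chosen after seeing the data. Replicate numbers were not used to pair the arrays in the main fit. Promoter windows came from RefSeq (GRCh38.p14), which had windows for all 9 genes. The array annotation gives no genome build, so no probe coordinates are given.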

Additional observations from a re-analysis of the deposited data

Results flagged for a closer look

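For PLAAT4 the arrays with TNF lay on opposite sides of those without it in the absence and the presence of apigenin, but a difference between the TNF effects was not shown. Without apigenin the 3 TNF arrays (5.86 to 6.20) lay below the control arrays (6.89 to 6.94). With apigenin the 3 TNF arrays (5.12 to 5.82) lay above the 2 arrays without TNF (4.93 and 5.02), in a comparison where 25.7% of all genes had groups without overlap. The difference between these effects was 1.34 ± 0.29 (SE), and limma's adjusted p for it was 0.222, so the interaction was not called. After quantile normalization the effect of TNF in apigenin-treated cells was 0.16 (adjusted p = 0.734), against 0.43 (adjusted p = 0.339) as deposited.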

How the results depend on the processing

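PTGES kept its sign in each of its 3 calls under all 21 alternatives, between -1.87 and -1.43 for apigenin against control when an array was left out and between -1.76 and -1.47 otherwise. Of the genes of the list, the number called for TNF plus apigenin against TNF was 1, and 0 to 1 with an array left out. For TNF plus apigenin against control it was 1. It was 0 with no filter on low values, 0 with only the groups compared and 2 with array weights. With an array left out it was 0 to 2. The causes of these differences were not tested. For TNF against control, TNF plus apigenin against apigenin and the interaction it was 0 under each alternative that was run for them; the interaction could not be fitted with only the groups compared, and the stricter filter removed PTGS1 and PTGER2. Among changes of the list that were not called, 18 of 550 values turned their sign. The replicate block changed no call of the list (1, 1 and 1 called in the comparisons with a call); with it FOS was no longer called for TNF (adjusted p = 0.0754), and NFKB1 and NR4A2 were called lower with apigenin (adjusted p = 0.0497 and 0.0442). Same-numbered arrays of different groups had correlated deviations over 0.1 in 4 of 15 pairs, against 8 of 30 pairs with different numbers. The highest correlation was 0.275 for same-numbered pairs and 0.193 for the others, and 6 of 11 arrays correlated best with their own number. These values do not settle whether the numbers pair the arrays, and the main fit did not use them.

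Over all genes, the calls for TNF numbered 111 (186 after quantile normalization, 221 with array weights, 182 after a median shift over the tested genes, 60 to 128 with an array left out). Apigenin gave 581 (35 higher and 546 lower), against 146 higher and 449 lower after quantile normalization, 148 and 357 after the shift over tested genes, 207 calls with array weights, 103 with only the groups compared, 84 without apigenin 1 and 1290 without apigenin 2. Adding apigenin to TNF gave 169 (510, 391 and 452 under the first 3 settings, 85 to 197 with an array left out), and both agents against control 447 (1233, 1197 and 998, and 206 to 538). Both agents against apigenin gave 91 (84 higher and 7 lower), against 78 and 18 after quantile normalization, 62 and 15 after the shift over tested genes, 173 calls after a median shift over all probe sets, 32 with array weights, 16 with only the groups compared, 18 without apigenin 1 and 598 without apigenin 2. The interaction gave 4 (2 in each direction), 7 after quantile normalization, 10 with a stricter filter, 10 (3 higher and 7 lower) after the shift over tested genes, 0 with the replicate block and 0 to 7 with an array left out. Low signal limits PTGS2, PLA2G4A and HPGD, which lay below the array median, and PTGER2, which lay near it; signal over background was not measured.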

Other observations

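Some genes of the list had exactly the same deposited value on several arrays. PLA2G4A read 1.58 on 5 arrays (control 3, TNF 1, apigenin 1 and TNF plus apigenin 1 and 2), HPGD read 1.79 on 3 arrays (replicate 2 of TNF, apigenin and TNF plus apigenin), and PTGS1 and PTGER2 had 1 value shared by 2 arrays each. PTGES, PTGES2, PTGS2 and PTGER4 had no shared value. Over the array, 48.2% of probe sets with a mean below 2.53 had a value shared by at least 2 arrays to all deposited digits, 33.4% of those at or above it, and 15.6% of those above the 90th percentile of the means. PTGS1 shared its value between control 2 and control 3, and PTGER2 between TNF 1 and TNF 2. PLA2G4A shared its value between arrays with both agents, among others. Where arrays of 1 group share a value, the SD of that group is not a plain measure of replicate spread. The SE given for PTGS1 and PTGER2 draws on such groups. HPGD with both agents had an SD of 0.01, but its 3 values (1.78, 1.79 and 1.77) differed, and its shared value lay across groups. What in the summarisation gives the shared values was not tested.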
